A study of Homo sapiens and Homo sapiens
Mus musculus and Mus musculus with 9 samples.

Results

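The MYC/MAX/MXD network is a set of basic helix-loop-helix leucine zipper transcription factors, and 10 of its genes were taken by symbol from the 41713 genes of the deposited table: MYC, MYCN, MYCL, MAX, MXD1, MXD3, MXD4, MXI1, MNT and MLX. C4-2B cells grown on their own (3 libraries) were compared by RNA-Seq with a co-culture in which 1 C4-2B cell was mixed with 30 MC3T3-E1 cells (3 libraries). C4-2B is an established human prostate cancer line of bone metastatic origin, MC3T3-E1 is a mouse osteoblast line, both are labelled WT, and the labels give alpha-MEM with serum as the medium of all cells, while the study's methods name RPMI for the routine culture of C4-2B. The 3 libraries made from MC3T3-E1 alone did not enter the comparison. Because RNA of the co-culture came from both species, human reads were separated with 3 pipelines, Xenome, XenofilteR and Kallisto, and each gene has 1 log2 fold change (co-culture over C4-2B alone) per pipeline. The labels do not say whether the 3 libraries of a group came from separate cultures, so the p-values measure the spread between libraries, which may be technical.

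MYC, MYCN and MYCL are transcriptional activators that bind DNA only as dimers with MAX, and MYC is known for driving ribosome production, nucleotide synthesis and glycolysis in dividing cells. MXD1, MXD3, MXD4, MXI1 and MNT compete for the same MAX partner and recruit SIN3 and histone deacetylase complexes, so that the same sites are repressed. MLX is the partner of a parallel arm that senses glucose through MLXIP and MLXIPL, and it can also bind MXD1, MXD4 and MNT. All these dimers recognise the E-box, of which CACGTG is the canonical form. In the prostate, MYC is often gained or over-expressed in carcinoma, and the MXD genes are best known from cells that leave the cell cycle and differentiate.

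Because the network acts through the E-box, the sites that lie before the start of its own genes and of its targets are shown first. The letters CACGTG, which read the same on both strands, were searched in windows of 300 bases (250 before to 50 after each gene start) of the RefSeq promoters (build GRCh38.p14). Windows were found for 9 of the 10 members, all but MYC, and 3 of these 9 genes held the motif, MLX, MNT and MXD4. Over all windows, 2548 of 35116 (7.26%) held it. Of the 6039 genes that had a window and a mean count of 1000 or more, 857 (14.2%) held it in a window. The stretches below are 30 bases around each match of the 3 members, 5′ to 3′ on the strand of the gene, with the E-box in capitals.
MLX: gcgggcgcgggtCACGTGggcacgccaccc
MNT: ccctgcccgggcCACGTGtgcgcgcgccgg
MXD4: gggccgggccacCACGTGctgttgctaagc
The MLX match begins 50 bases upstream of the start (chr17:42567038-42567067, plus strand), that of MNT 193 bases upstream (chr17:2401236-2401265, minus strand) and that of MXD4 238 bases upstream (chr4:2262330-2262359, minus strand). The 6 letters were not found in the windows of MYCN, MYCL, MAX, MXD1, MXD3 and MXI1.

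The matches upstream of known MYC-activated genes are given next, for those targets whose transcript changed in the co-culture (below). HK2 and LDHA, which encode the glycolytic enzymes hexokinase 2 and lactate dehydrogenase A, each held a pair of matches in 1 of their windows. ODC1 and SRM encode enzymes of polyamine synthesis, AIMP2 a scaffold of the aminoacyl-tRNA synthetase complex and PRMT3 an arginine methyltransferase that acts on a ribosomal protein. DUSP2, a nuclear phosphatase of MAP kinases, was the target with the largest decrease.
HK2 (far): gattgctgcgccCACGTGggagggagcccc
HK2 (near): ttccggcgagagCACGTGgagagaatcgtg
LDHA (far): agactcccagcgCACGTGgagcagtctgcc
LDHA (near): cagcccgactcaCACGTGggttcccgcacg
ODC1: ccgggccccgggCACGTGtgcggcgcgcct
SRM: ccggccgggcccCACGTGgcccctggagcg
AIMP2: ccgggcgctggcCACGTGcaggtaggagcg
PRMT3: ccgcccccacctCACGTGacccgcacggcg
DUSP2: cagactgcgcccCACGTGaggggcgggggc
The HK2 matches lie 194 and 149 bases upstream (chr2:74834964-74834993 and chr2:74835009-74835038, plus strand), and those of LDHA 185 and 87 bases upstream (chr11:18394366-18394395 and chr11:18394464-18394493, plus strand). The ODC1 match is 29 bases upstream (chr2:10448024-10448053, minus strand) and the SRM match 199 bases upstream (chr1:11060200-11060229, minus strand). AIMP2 had its match 75 bases upstream (chr7:6009478-6009507, plus strand), PRMT3 187 bases upstream (chr11:20387517-20387546, plus strand) and DUSP2 113 bases upstream (chr2:96145536-96145565, minus strand). Of the 60 activated targets with a window, 33 (55.0%) held the motif, and it was found in 11 of the 18 targets that were higher in the co-culture and in 22 of the other 42. These shares describe letters in a window and say nothing about binding. Several upstream matches also occurred in targets that were not called, with 3 in APEX1, 3 in CDK4 and 2 in UNG.

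In the co-cultured C4-2B cells, MYC was higher and MXD3 was lower, both by less than 2-fold, and the other 7 members with a tested value did not pass the test in at least 2 pipelines. A gene was called by the rule of the study's methods where its log2 fold change was at least 1 in size and its adjusted p under 0.05 (DESeq2 Wald test) in the same direction in at least 2 of the 3 pipelines. By this rule 0 of the 9 tested members were called, beside 1.98% of all 25298 genes tested. When p was not adjusted, 4 members (MYC, MYCL, MAX and MXI1) were higher at p under 0.05 in 2 or more pipelines and 1 was lower (MXD3), and 0 of them reached the fold minimum. By the same threshold 11.4% of all genes tested were higher and 9.87% lower. Without the fold minimum, 1 member was called higher, where 5.24% of all genes were, and 1 was called lower, where 4.78% were. Of the 9 members, 6 had a mean count of 1000 or more, where these shares are larger. Among the 7519 genes at such counts, 20.8% were higher and 13.5% lower at an unadjusted p under 0.05. After adjustment 11.1% of them were called higher and 7.7% lower. The median log2 fold change of the 9 members was -0.01 and that of all genes tested was 0.00. In such bulk libraries a change in the share of a kind of cell and a change of RNA per cell cannot be told apart.

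**Figure D1:**
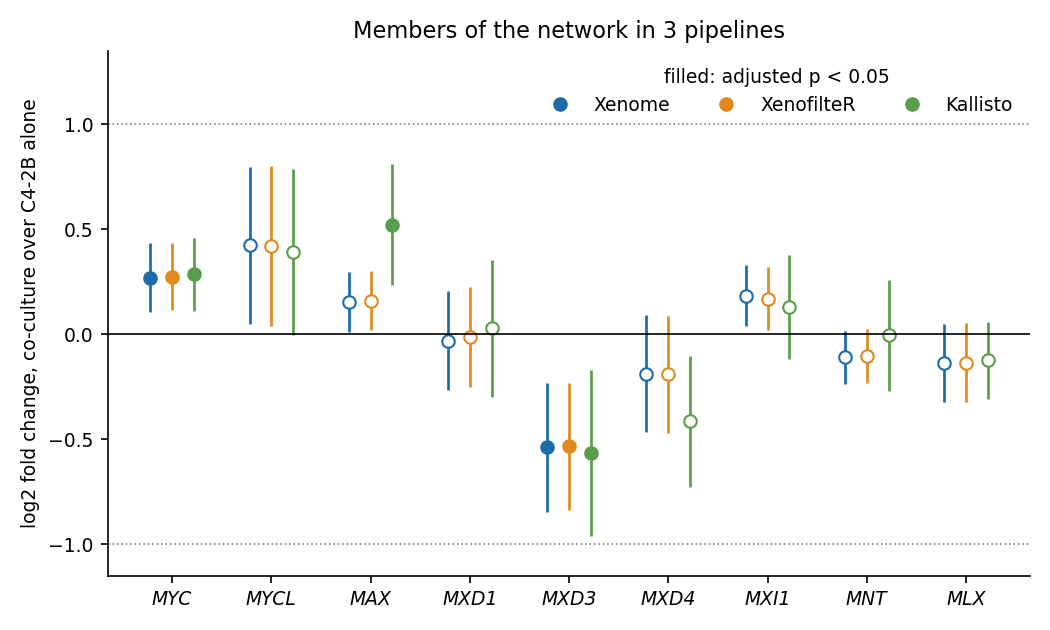
Log2 fold change of each member (vertical axis, co-culture over C4-2B alone) in the Xenome, XenofilteR and Kallisto pipelines, with 95% intervals from the deposited standard errors. Filled points have an adjusted p under 0.05, and dotted lines mark the fold minimum of log2 1. MYC lies above and MXD3 below 0 in all 3 pipelines, and MAX is filled with Kallisto alone.

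Group levels are given as normalised counts, that is, counts divided by the DESeq2 size factor of the library, and were derived for each group from the authors' mean over the 6 libraries and the log2 fold change. They are fitted group values. Values of single libraries were not analysed here, so the groups cannot be described as overlapping or separate.

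Among the activators, MYC (ENSG00000136997, chr8:127735434-127742951, GRCh38) went from 6164 normalised counts in C4-2B cells alone to 7431 in the co-culture by Xenome. With XenofilteR the levels were 6148 and 7437, and with Kallisto 6255 and 7620. The 3 pipelines thus placed the co-culture above the cells alone by nearly the same amount. The log2 fold change was 0.27 ± 0.08 (SE) with Xenome, 0.27 ± 0.08 with XenofilteR and 0.28 ± 0.09 with Kallisto, a median fold of 1.21. The adjusted p of the DESeq2 Wald test was 0.016, 0.012 and 0.013, in the same order. In size this change was larger than in 73.0% of the 14145 genes whose mean count was 50 or more. CASC11, a long non-coding RNA gene that overlaps MYC, had a mean count of 38.8 and a log2 fold change of 0.95 ± 0.37 (adjusted p = 0.074).

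MYCL (ENSG00000116990, chr1:39895426-39902256), the family member first found amplified in small cell lung cancer, was the least abundant member with a tested value. Its level was 210 normalised counts in C4-2B cells alone and 282 in the co-culture by Xenome. The log2 fold change was 0.42 ± 0.19 (SE) with Xenome, 0.42 ± 0.19 with XenofilteR and 0.39 ± 0.20 with Kallisto. This is a larger estimate than that of MYC, but its adjusted p was 0.15, 0.16 and 0.20, and the 95% interval with Xenome ran from 0.05 to 0.80. MYCN (ENSG00000134323, chr2:15940550-15947007), the family member amplified in neuroblastoma and in some neuroendocrine prostate cancers, had no value with Xenome or XenofilteR, and its mean count with Kallisto was 0.0285, so that no fold is given. The lowest mean count listed for any gene with Xenome was 0.0562.

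MAX (ENSG00000125952, chr14:65006174-65102695), the shared partner of activators and repressors, gave different results in the pipelines. Its level went from 2822 normalised counts in C4-2B cells alone to 3139 in the co-culture by Xenome, from 2810 to 3140 with XenofilteR and from 2793 to 4009 with Kallisto. The pipelines thus had like levels in the cells alone, and Kallisto stood apart in the co-culture. The log2 fold change was 0.15 ± 0.07 (SE, adjusted p = 0.18) with Xenome and 0.16 ± 0.07 (adjusted p = 0.14) with XenofilteR, against 0.52 ± 0.15 (adjusted p = 0.0046) with Kallisto. MAX therefore passed the adjusted p in 1 pipeline only, and it stayed under the fold minimum in all 3. With Kallisto alone 2 of the 9 members, MYC and MAX, were called higher without the fold minimum, beside 8.28% of all genes that this pipeline tested.

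Among the MAX-binding repressors, MXD3 (ENSG00000213347, chr5:177301461-177312757), the MXD gene that is expressed in S phase of dividing cells, was the only one called without the fold minimum. Its level went from 906 normalised counts in C4-2B cells alone to 623 in the co-culture by Xenome, from 905 to 625 with XenofilteR and from 953 to 643 with Kallisto. The co-culture lay below the cells alone in each pipeline. The log2 fold change was -0.54 ± 0.16 (SE) with Xenome, -0.53 ± 0.15 with XenofilteR and -0.57 ± 0.20 with Kallisto, and the median fold was 0.688. The adjusted p was 0.0089, 0.0085 and 0.038. In size this exceeded the change of 91.0% of the 14145 genes. The MXD3 locus overlaps RAB24, with a mean count of 564 and a log2 fold change of -0.20 ± 0.14 (adjusted p = 0.41), and PRELID1, with 4773 and 0.24 ± 0.07 (adjusted p = 0.011). Whether reads were counted by strand is not given in the sources used here, so reads in such overlaps cannot be assigned with certainty.

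The other repressors did not pass the test. MXD1 (ENSG00000059728, chr2:69897688-69942945), known for its rise during differentiation, had 593 normalised counts in C4-2B cells alone and 580 in the co-culture by Xenome. Its log2 fold change was -0.03 ± 0.12 (SE) with Xenome, -0.01 ± 0.12 with XenofilteR and 0.03 ± 0.17 with Kallisto, with a 95% interval from -0.27 to 0.20 with Xenome. MXD4 (ENSG00000123933, chr4:2247432-2262109) had 2512 and 2204 normalised counts with Xenome and 2583 and 1937 with Kallisto. Its log2 fold change was -0.19 ± 0.14 (adjusted p = 0.48) with Xenome, -0.19 ± 0.14 (0.46) with XenofilteR and -0.42 ± 0.16 (0.058) with Kallisto, so the estimate was larger in size with Kallisto without passing the test.

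MXI1 (ENSG00000119950, chr10:110207605-110287365), long studied as a candidate tumour suppressor of the prostate, had 1573 normalised counts in C4-2B cells alone and 1786 in the co-culture by Xenome, 1678 and 1888 with XenofilteR, and 1722 and 1883 with Kallisto. Its log2 fold change was 0.18 ± 0.07 (adjusted p = 0.091) with Xenome, 0.17 ± 0.08 (0.15) with XenofilteR and 0.13 ± 0.13 (0.58) with Kallisto. MXI1 was the repressor with the highest estimate, and it is also the only one whose median was positive. MNT (ENSG00000070444, chr17:2384073-2401104), the broadly expressed MAX-binding repressor, had 2390 and 2215 normalised counts with Xenome and 1928 and 1920 with Kallisto, and its log2 fold change was -0.11 ± 0.06 (SE, adjusted p = 0.32) with Xenome, -0.10 ± 0.07 with XenofilteR and -0.01 ± 0.14 with Kallisto. For MNT the 95% interval was -0.24 to 0.02 with Xenome, which leaves out changes of 2-fold in either direction.

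MLX (ENSG00000108788, chr17:42567068-42573239) had 5591 normalised counts in C4-2B cells alone and 5087 in the co-culture by Xenome, and 6418 and 5886 with Kallisto. Its log2 fold change was -0.14 ± 0.09 (SE) with Xenome, -0.14 ± 0.10 with XenofilteR and -0.12 ± 0.09 with Kallisto, and the adjusted p was 0.43, 0.44 and 0.43. In a list of 5 further genes, MLXIP, MLXIPL, TXNIP and ARRDC4 of the MLX arm and the MAX partner MGA, 0 were higher and 2 were lower, where 4.78% of all genes tested were lower. MLXIP (MondoA), a partner of MLX, had a log2 fold change of -0.20 ± 0.06 with Xenome (adjusted p = 0.025). MLXIPL (ChREBP), the carbohydrate response factor that also pairs with MLX, had -0.83 ± 0.24 with Xenome (adjusted p = 0.0085) and -0.49 with Kallisto (adjusted p = 0.42). MGA, which binds MAX, had 0.32 with Xenome (adjusted p = 0.23) and 0.68 with Kallisto (adjusted p = 3.8e-08), so it passed the adjusted p in 1 pipeline only, as MAX did. TXNIP, the best known target of MLX dimers, had 0.29 ± 0.17 with Xenome (adjusted p = 0.32).

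To compare levels between genes, the normalised counts of Xenome were divided by the length of the joined exons of each gene in GENCODE release 44. MLX and MYC had the highest levels per kb, with 1314 and 1009 normalised counts per kb in C4-2B cells alone, and their means over both groups lay above 87.7% and 85.7% of the 11648 protein-coding genes whose mean count was 50 or more. MAX followed with 451 per kb. MXD4 (366), MNT (275) and MXI1 (266) came next, then MXD3 (191), MXD1 (93.3) and MYCL (42.3 per kb). In the co-culture MYC had 1216 and MLX 1195 per kb, and MXI1 (302) stood above MNT (255), so these 2 neighbouring pairs changed places with Xenome. With Kallisto MLX stood above MYC in both groups, and with XenofilteR and Kallisto MXI1 stood above MNT in both groups. In the co-culture MXI1 also stood above MXD4 with Kallisto (319 against 282 per kb) and with XenofilteR (320 against 319 per kb). No error was computed for levels per kb. No order is therefore read between MXI1 and MNT in either group, or in the co-culture between MYC and MLX or MXI1 and MXD4. Summed over MYC and MYCL, since MYCN had no value with Xenome, the level per kb was 1051 in C4-2B cells alone and 1273 in the co-culture. Summed over MXD1, MXD3, MXD4, MXI1 and MNT it was 1191 and 1100. The ratio of activators to repressors was thus 0.883 in cells alone against 1.16 in co-culture with Xenome, 0.869 and 1.14 with XenofilteR, and 0.902 and 1.24 with Kallisto. These ratios are descriptions of transcript levels, and they rest on the annotation, since exons that are not used in these cells also count in the length.

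**Figure D2:**
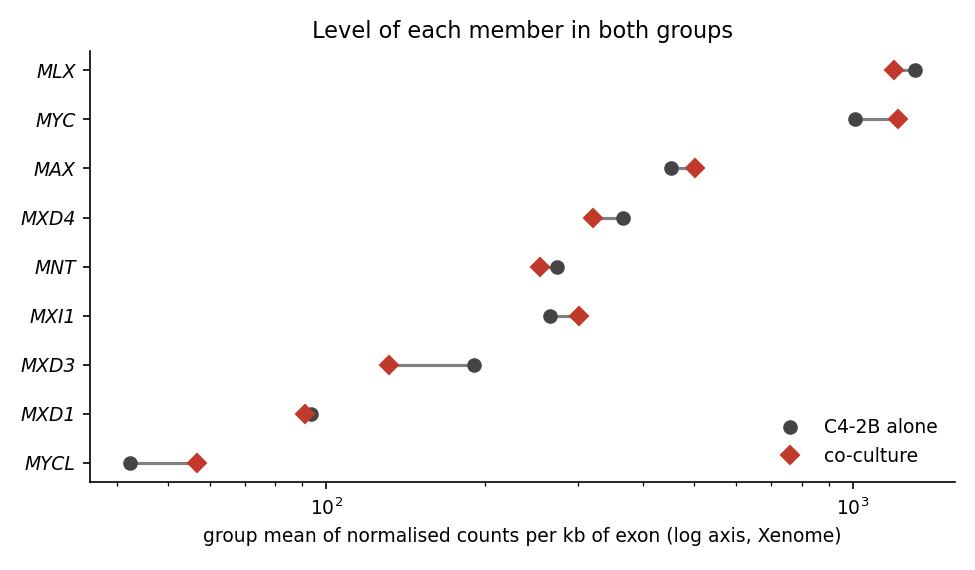
Fitted group mean of each member in normalised counts per kb of joined exons (horizontal log axis, Xenome), for C4-2B cells alone (circles) and the co-culture (diamonds). MYC moves from 1009 to 1216 per kb and MXD3 from 191 to 131 per kb, and MXD4, MNT and MXI1 lie close together.

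Downstream of the network, a list of 74 genes known to be activated by MYC was then described. Without the fold minimum, 24 of these targets were higher in the co-culture, 2 were lower and 48 were not called (DESeq2 Wald test, at least 2 pipelines). The median log2 fold change was 0.17, beside 0.03 over all tested genes whose mean count was 1000 or more. Kallisto gave these targets a smaller median (0.11) than Xenome and XenofilteR did (0.18 each). The values of 63 targets were positive and those of 11 negative. A share of positive values over all genes is not given here, so these counts have no background to be read against. Most of these targets are abundant, and 68 of them reached a mean count of 1000, where 11.1% of all 7519 genes were called higher and 7.7% lower. Of these 68 targets, 24 were higher and 1 was lower. With the fold minimum, 0 of 74 were called, beside 1.28% of all genes called higher, and 37 were higher and 3 lower at an unadjusted p under 0.05. By that threshold 20.8% of the 7519 abundant genes were higher and 13.5% lower. The count of 24 depended on the centring of the fold changes. It was 15 after subtracting the median of protein-coding genes whose mean count was 1000 or more, 0.03 with Xenome. The share of all genes called higher was not recomputed at this centring, so the 11.1% does not apply to the count of 15.

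HK2 had the largest increase among the targets, with a log2 fold change of 0.96 ± 0.13 (SE, adjusted p = 9.4e-12, Xenome). LDHA followed with 0.92 ± 0.19 (adjusted p = 5.7e-05). Both encode enzymes of glycolysis, and their upstream E-boxes are printed above. SHMT2, the mitochondrial serine hydroxymethyltransferase that feeds one-carbon units, had 0.68 ± 0.10 (adjusted p = 4.2e-09), and IMPDH2, the rate-limiting enzyme of guanine nucleotide synthesis, had 0.56 ± 0.07 (adjusted p = 2.8e-14). FBL (fibrillarin), the methyltransferase of ribosomal RNA, had 0.50 ± 0.11 (adjusted p = 1.3e-04). These were the 5 targets with the largest increases, and all 5 were called in each of the 3 pipelines.

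Among the nucleolar proteins of the list, NPM1 (nucleophosmin) had a log2 fold change of 0.31 ± 0.05 with Xenome (adjusted p = 1.1e-08), whereas NOP56 had -0.01 and GNL3 0.06 as medians and were not called. NCL (nucleolin) had 0.25 ± 0.08 (adjusted p = 0.019), though with Kallisto NCL had 0.09 (adjusted p = 0.67). ODC1, a classical E-box target, was higher by 0.29 ± 0.06 (adjusted p = 6.6e-05), and SRM by 0.22 ± 0.07 (adjusted p = 0.016). With Kallisto SRM had 0.15 and did not pass the DESeq2 Wald test (adjusted p = 0.15). Other classical targets did not pass the test with Xenome: CAD, the first enzymes of pyrimidine synthesis, had 0.15 ± 0.07 (adjusted p = 0.16), CDK4 had 0.31 ± 0.11 (adjusted p = 0.051) and TERT had 0.26 ± 0.20 (adjusted p = 0.49). DUSP2 was lower, with -0.94 ± 0.17 (adjusted p = 4.5e-06). EIF4A1, the RNA helicase of translation initiation, was called lower with Xenome (adjusted p = 0.0090) and XenofilteR, while with Kallisto its log2 fold change was 0.18 (adjusted p = 0.057), against a median of -0.52. Its mean count was 840 with Xenome and 73271 with Kallisto, so the call rests on a small part of the reads that Kallisto assigned to it. WDR74, a factor of the large ribosomal subunit, had 0.13 with Xenome (adjusted p = 0.36) and 1.14 with Kallisto (adjusted p = 1.3e-20).

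**Figure D3:**
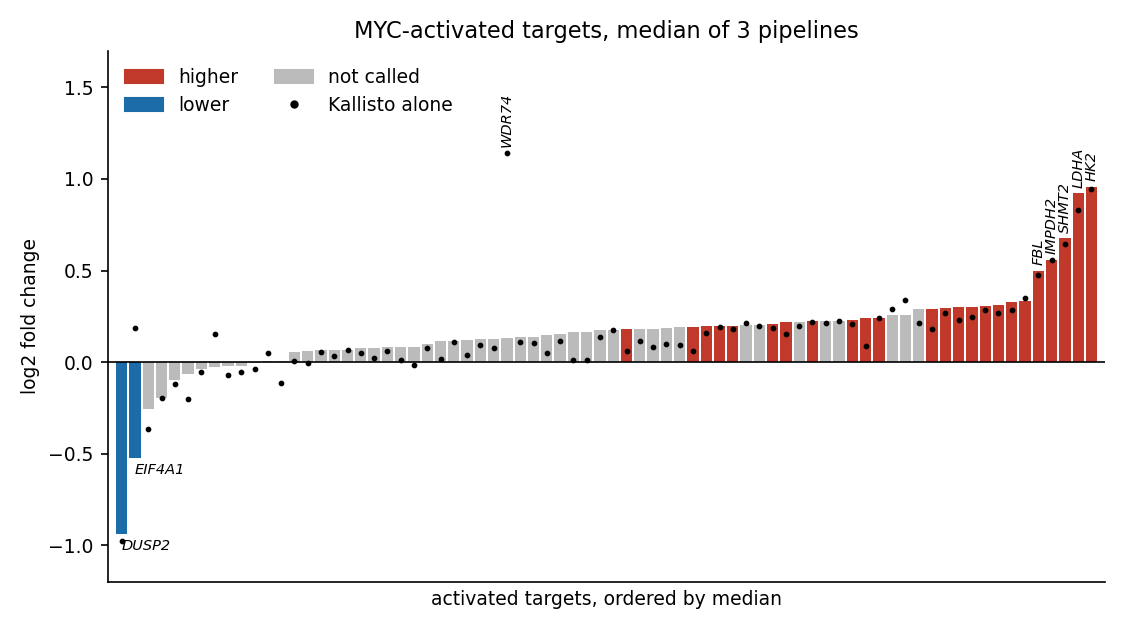
Log2 fold change of the 74 activated targets, ordered by size (bars, median of 3 pipelines), with the Kallisto value alone as a point. Red bars are the 24 targets called higher and blue bars the 2 called lower, and the points of WDR74 and EIF4A1 stand away from their bars.

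**Figure D4:**
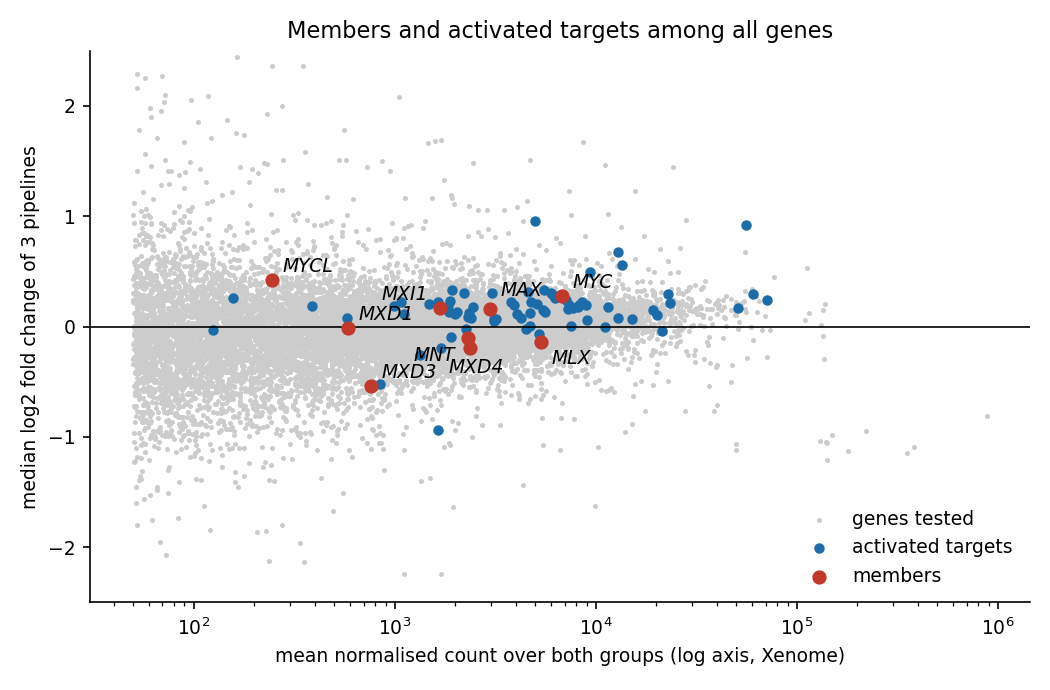
Median log2 fold change of the 3 pipelines (vertical axis, limited to 2.5 either way) against the mean normalised count (horizontal log axis, Xenome) for genes whose mean count was 50 or more (grey), the 74 activated targets (blue) and the 9 members (red). The targets lie mostly to the right of 1000 and slightly above 0, with HK2 and LDHA near 1 and DUSP2 near -1.

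The list of 12 genes known to be repressed by MYC held no called gene: of 11 genes tested, 0 were higher and 0 lower (DESeq2 Wald test), where 5.24% and 4.78% of all genes were, and the median was -0.01. At an unadjusted p under 0.05, 1 of the 11 was higher, where 11.4% of all genes were. CDKN1A (p21), the cell cycle inhibitor, had a log2 fold change of 0.46 ± 0.21 with Xenome (adjusted p = 0.17), and CDKN1B (p27) had 0.03 ± 0.07 (adjusted p = 0.85). For the lists that follow, the share of all genes called higher was 5.24%, or 11.1% at mean counts of 1000 and more, and most of their genes lie in that range. Of the 12 coactivators of MYC, all of them in it, 4 were higher and 0 lower, and the median was 0.14. The largest was RUVBL1, an ATPase of the TIP60 and INO80 complexes, with 0.42 ± 0.05 (adjusted p = 1.2e-12), followed among the called genes by TRRAP, the scaffold that MYC recruits, with 0.30 ± 0.07 (adjusted p = 3.0e-04), and RUVBL2 with 0.24 ± 0.07 (adjusted p = 0.012, and 0.094 with Kallisto). Among the 12 corepressors of the network, 1 was higher and 0 were lower. It was SAP30, a SIN3 complex subunit, with 0.39 ± 0.13 (adjusted p = 0.033, and 0.090 with Kallisto), whereas SIN3A had 0.00 ± 0.07 and SIN3B -0.18 ± 0.08 (adjusted p = 0.15). Of the 14 tested genes that act on the stability of the MYC protein, 1 was higher, AURKA, with 0.28 ± 0.07 (adjusted p = 0.0027, and 0.089 with Kallisto), and 0 were lower. FBXW7, the ubiquitin ligase subunit that degrades MYC, had 0.17 ± 0.11 (adjusted p = 0.42). Unless Kallisto is named, the values of these lists are those of Xenome, apart from the medians, and protein levels were not measured.

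The reads behind these values were unequal between the groups. The size factors of the 6 libraries, solved from the lowest mean counts, ran from 4.86 to 5.93 for C4-2B alone and from 0.109 to 0.427 for the co-culture, which corresponds to 207 to 253 M and 4.59 to 18.0 M human counts per library. Summed over the 3 co-culture libraries, the expected counts were 5055 for MYC, 3460 for MLX, 2136 for MAX, 424 for MXD3 and 192 for MYCL. In C4-2B alone they were 99256 for MYC and 14582 for MXD3. Counting error made up 6.27% of the variance of the log2 fold change for MYC and 20.8% for MXD3, and it ranged up to 38.0% for MXD1. The rest corresponds to the dispersion of the DESeq2 fit, which was derived from the deposited Xenome standard error and not measured between single libraries. As a coefficient of variation this fitted dispersion was 6.75% for MYC and 11.4% for MXD3. It was highest among the members for MYCL, with 12.8%, and lowest for MNT, with 4.24%.

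The members share sequence with mouse transcripts to different degrees. Of the distinct 31-base sequences of human transcripts, 5.16% of those of MAX also occurred in mouse transcripts, 3.98% of MXI1 and 3.58% of MNT, against 0.702% of MYC and 0.452% of MXD3, and the median of 19874 protein-coding genes was 0.502%. Of 50-base sequences, the read length, 3.58% of those of MAX were shared, more than in 97.8% of protein-coding genes, and 0% of those of MYC and MXD3. The Kallisto value of MAX exceeded that of Xenome by 0.37 (log2), a gap larger than in 95.4% of 11580 protein-coding genes. MXD4, with 0.432% of its 31-base sequences shared, had the next largest gap, -0.23. Whether shared sequence plays a part in the MAX value was not tested.

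**Figure D5:**
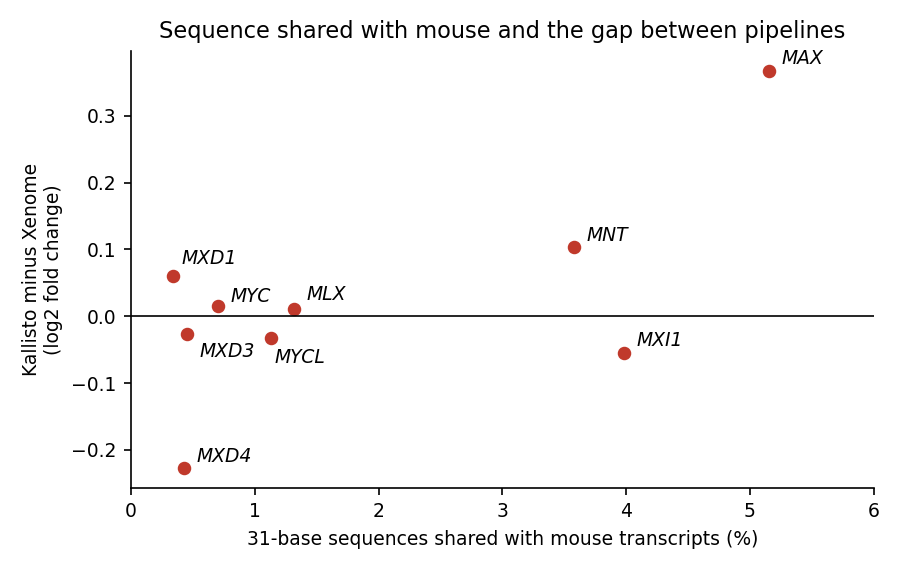
Difference between the Kallisto and Xenome log2 fold changes of each of 9 members (vertical axis) against the percentage of its 31-base sequences that occur in mouse transcripts (horizontal axis). MAX stands apart at 5.16% and 0.37, while MXI1, with 3.98%, lies at -0.05 and MNT, with 3.58%, at 0.10.

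The cell type labels were checked against markers. All 11 prostate cancer cell markers in the table had a mean count of at least 50 with Xenome, and the sum of their levels went from 241550 normalised counts in cells alone to 219610 in co-culture. TMPRSS2 (log2 fold change of -0.69 ± 0.14 with Xenome), KLK4 (-0.64 ± 0.08) and STEAP2 (-0.50 ± 0.09) were lower. Of 20 osteoblast markers, 15 were tested, and 6 were higher and also reached the fold minimum: COL1A1, COL1A2, SPARC, POSTN, CDH11 and PRRX1, while 0 were lower, beside 1.28% of all genes called higher at that minimum. Their median log2 fold changes ran from 3.00 for COL1A1 to 12.64 for COL1A2. Of these markers COL1A1 had a mean count of 3384 with Xenome. The counts of the others were low, 78.5 for PRRX1, 72.0 for SPARC, 49.6 for CDH11, 45.0 for COL1A2 and 4.22 for POSTN. The pipelines also differed, and COL1A1 had 3.00 with Xenome, 3.49 with XenofilteR and 1.66 with Kallisto. POSTN did not pass with XenofilteR (DESeq2 Wald test, adjusted p = 0.14). COL3A1 was not called because the pipelines disagreed in direction (DESeq2 Wald test). It had -1.13 with Xenome (adjusted p = 0.048), 3.56 with XenofilteR (adjusted p = 3.0e-06) and 0.95 with Kallisto (adjusted p = 0.45). Of the defining osteoblast genes, SP7, ALPL, BGLAP, IBSP and SPP1 were near 0 in the human counts, with mean counts of 0.984, 0.103, 3.78, 2.75 and 0.653. RUNX2, the osteoblast transcription factor, had a mean count of 411 and a log2 fold change of 0.41 ± 0.16 (adjusted p = 0.085). Summed over the 20 markers, the level went from 46146 in cells alone to 42381 in co-culture with Xenome. It went from 46430 to 46270 with XenofilteR and from 47110 to 41308 with Kallisto. Most of the sum was FN1 (mean count 40055, log2 fold change of -0.35 ± 0.15 with Xenome). The sum therefore mainly follows FN1 and does not show the increases of the 6 markers above. The part of these markers in the MYC and MXD3 values was not tested.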

How the data were processed

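Members and gene lists were chosen with earlier results of these data known. Per the study's methods, the authors selected human reads (Xenome before and XenofilteR after alignment with HISAT2) and counted them on GRCh38 by featureCounts. Kallisto was run on an index that joined human and mouse transcripts. Sequencing was paired-end with 50 bases per read. In every pipeline the authors ran DESeq2 on both groups. Versions are not given in the sources used here. They deposited log2 fold changes with standard errors, also log2. The Wald statistic they deposited is a score. Each deposited p-value comes from DESeq2's Wald test, with the authors' Benjamini-Hochberg adjusted p-value over the genes of a pipeline that passed DESeq2's filter on low means, left empty for the others. The deposited mean over 6 libraries is a score on the scale of counts divided by size factors.

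The table had 41734 rows, and 21 repeated genes were dropped. These columns were used as deposited and no test was refitted. A gene was tested if 2 or more pipelines gave an adjusted p, and its value is the median of the pipelines. Group means follow from the mean and the fold change. Size factors were solved as the steps by which low means rise per read. They explained all 13686 genes with a mean under 2 (Xenome) to within 1e-09, and each of the 1397 genes with reads only in the 3 deepest libraries and a mean worth at least 20 reads had a negative fold change, which places those libraries in C4-2B alone. The solver was tested on simulated data. Shared sequence used GENCODE 44 and M21 transcripts. All members were named, from each other list the calls past the fold minimum or else the 3 largest changes among genes with an adjusted p under 0.05 in 2 or more pipelines and a mean count of 50 or more, and further genes were chosen after their values were seen. Scripts used Python 3.11.15, pandas 2.3.3, numpy 2.4.6 and scipy 1.17.1. Alternatives were each pipeline alone, recentring, other adjustments, the fold minimum and the number of pipelines. Some markers of the lists are not reported here.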

Additional observations from a re-analysis of the deposited data

How the results depend on the processing

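Of 114 values under alternatives, 102 kept their direction and their side of the threshold, or a count within 1.5 times, among them all values of MYC and MXD3 (adjusted p of MYC 0.033 and of MXD3 0.0045 when recentred on protein-coding genes whose mean count was 1000 or more, a setting chosen after seeing the data). With Kallisto alone, MAX passed the test (0.52, adjusted p = 0.0046), MXD1 changed sign (0.028), 2 members were higher without the fold minimum, 1 activated target was higher with it (WDR74) and 1 was lower without it. Without the fold minimum, 1 member was higher and 1 lower, and 24 targets were higher and 2 lower. Requiring all 3 pipelines left 1 target lower, DUSP2, and 16 targets higher, where Kallisto alone had 17, and recentring at 1000 left 15 targets higher. The median share of sequence shared with mouse over the 10 members was 1.22% with 31 bases and 0.142% with 50 bases. The cause of these differences was not tested.

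No paired analysis was possible because values per library were not analysed here, and for the same reason leaving out each replicate in turn was not run. Counting error, which depth sets, made up 31.5% of the variance of MYCL and 38.0% of that of MXD1, the largest share among the members.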
